A study of Mus musculus with 4 samples.

Results

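Ribosome footprints of 10 antioxidant and glutathione enzyme genes were examined in MLE-12 cells, an immortalised mouse lung epithelial line used in place of alveolar type 2 cells, with and without the diesel-exhaust nitroarene 1-nitropyrene. The genes were Sod1, Sod2, Cat, Gpx1, Gpx4, Prdx1, Txn1, Gsr, Gstm1 and Gstp1, picked by Ensembl ID from the 53465 IDs of the count table. They form a list by function, drawn up with earlier results of these data known. Of the 10, 8 had enough counts to be tested, and Gpx4 and Gstp1 did not. Control cells (replicates 1 and 2) received no 1-nitropyrene and treated cells (replicates 2 and 3) were kept with 5 µM of it, both for 12 h. All 4 libraries thus come from 1 cell line that expresses a viral large T antigen. No label names a vehicle for the controls, and none says that replicates were separate cultures. The p-values thus measure a spread between these libraries that was shared over genes and may be technical. The series concerns how the compound acts on translation in lung epithelium.

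Superoxide, a by-product of respiration and of redox cycling, is converted to hydrogen peroxide by superoxide dismutases, Sod1 in the cytosol and Sod2 in mitochondria. Peroxide is then removed by catalase in peroxisomes, by glutathione peroxidases, which spend glutathione, and by peroxiredoxins, which are recycled by thioredoxin. Glutathione reductase restores reduced glutathione, and glutathione S-transferases attach it to reactive compounds. Many genes of this system are known targets of the transcription factor NRF2, which binds antioxidant response elements.

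Total counts per library ran from 1136145 to 1357034. The 10 genes together held 2867 and 2522 of these under control conditions and 2117 and 2352 under 1-nitropyrene. These sums are unscaled, and Txn1 alone made up 1869 and 1543 of them under control conditions and 1232 and 1294 under 1-nitropyrene. They are thus no measure of the list as a whole. A footprint level is given in CPM, the count scaled to a library of 1e+06 counts after TMM normalization, on which 1 count was worth 0.761 to 0.860 CPM. The 2 gene IDs with the most counts took 29.7% of all counts in either control library and 32.9% and 33.0% in the 1-nitropyrene libraries. Pairs of libraries of the same group differed by more than counting noise (chi-square per degree of freedom 1.55 and 1.61), so each library was counted as 1 sample. Footprints depend on the amount of an mRNA and on how many ribosomes it carries, and without RNA libraries the parts of each cannot be told apart. Each level is relative to its library, so neither the number of cells nor the RNA per cell can be read from it.

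Of the 8 tested enzymes, 3 fell (Sod2, Gsr and Txn1), 1 rose (Cat) and 4 did not pass the test (Sod1, Gpx1, Prdx1 and Gstm1; edgeR quasi-likelihood test, adjusted p under 0.05 over 7719 genes). The mitochondrial dismutase Sod2 had the largest fitted change, to 58.7% of its control level (without 1-nitropyrene replicate 2 Gsr had the larger, with log2 fold changes of -0.64 for Gsr and -0.56 for Sod2), and the reductase Gsr was at 64.6%, Txn1 at 76.5% and Cat at 128% of control. Among all genes tested, 17.3% were called, 9.68% as higher and 7.58% as lower. The 8 tested members were more deeply covered than most genes, with mean counts of 67.25 or more. Among the 3242 tested genes whose mean count reached 50, the called share was 27.6% (17.6% higher, 10.1% lower). The members' 4 calls of 8 stand beside that share, and no test of the list was made. With at least 1.5-fold change also required, 2 of the 8 (Sod2 and Gsr) remained, beside 10.8% of all tested genes. Scaled to total counts, 3 of the 8 were called, beside 19.5%. The DESeq2 Wald test called 1 of the 8 (Txn1), beside 11.9% of the 2674 genes for which it gave an adjusted p. The members' median log2 fold change was -0.14, beside -0.0076 for all tested genes and 0.046 for the genes whose mean count reached 50.

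**Figure D1:**
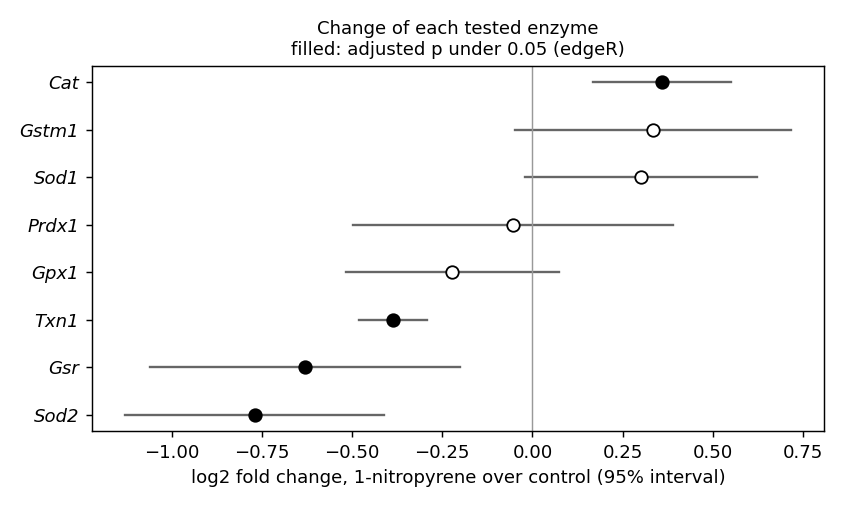
Log2 fold change of each tested enzyme, 1-nitropyrene over control, on the x axis, with its 95% interval as a line (2 libraries per group). Filled points passed the test. Sod2, Gsr and Txn1 lie below 0 and Cat above it, with intervals that do not reach 0, and the intervals of Gpx1, Prdx1, Sod1 and Gstm1 include it.

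**Figure D2:**
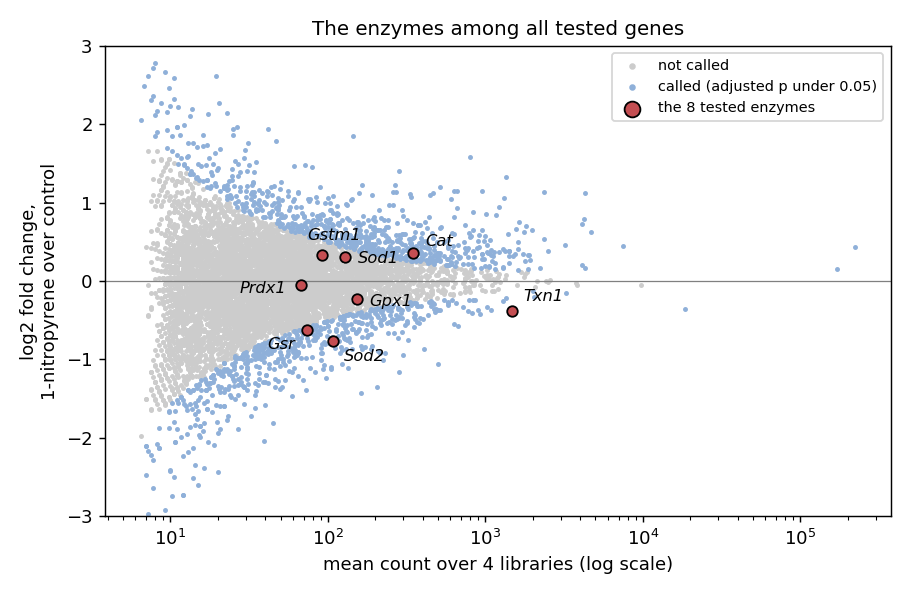
Log2 fold change (y axis) against mean count over the 4 libraries (x axis, log scale) for all 7719 tested genes, with 3 genes beyond the plotted range. The 8 enzymes (red) lie at mean counts of 67.25 and up; Txn1, the most deeply counted of them, was called at a smaller change than Gsr or Sod2.

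The start of each gene was searched for binding motifs commonly tied to oxidant or xenobiotic responses. The GC box, a motif common in promoters at large, was searched for as well. RefSeq's promoter table for GRCm38.p6 matched 9 of the 10 genes, all but Gsr, with 13 windows of 250 bases before to 50 after a start. On both strands, the core antioxidant response element TGACNNNGC was found in Prdx1 and Sod1, and in 12.4% of all 32851 windows. The AP-1 site TGANTCA was found in Prdx1 and Gstp1, and in 7.81% of windows. In Gstp1 the AP-1 match is followed by GC and so reads TGAGTCAGC. This differs from the searched antioxidant pattern only by a G for its first C. Wider forms of the antioxidant pattern were not searched, so its absence from a gene holds for these letters alone. The xenobiotic response element TNGCGTG was found in 0 of the 9 genes and in 5.07% of windows. The GC box GGGCGG was found in 8 of the 9, all but Gstm1, and in 35.7% of windows. For each motif a gene was counted if any of its windows matched, whereas the percentages are of single windows. Gpx4 had 4 windows and Gstm1 2, so counts of genes and shares of windows are not on the same base. The following 30-base stretches, with the match in capitals, show an antioxidant or AP-1 match in each of 3 genes. Of these, Prdx1 and Sod1 were tested and did not pass. The other stretches show the last GC box before the start in 3 genes that changed (Sod2, Txn1 and Cat). No antioxidant, AP-1 or xenobiotic match was found in those 3 genes. All stretches are written 5′ to 3′ on the gene's strand. A match is a description of letters and not a site shown to be bound.
Prdx1: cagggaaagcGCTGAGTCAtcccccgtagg
Sod1: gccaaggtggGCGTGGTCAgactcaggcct
Gstp1: ctccaacgtgtTGAGTCAgcatccggggcg
Sod2: ttccccgaggcgGGGCGGggccaaggccga
Txn1: ccccctggaaaaCCGCCCcacctcttgggg
Cat: cccaagggtgggGGGCGGtgctgattggtg
The Prdx1 match lies 133 bases before the start (chr4:116685456-116685485, plus strand) and reads TGACTCAGC on the opposite strand, so that it overlaps an AP-1 match. A further AP-1 match of Prdx1, TGACTCA 237 bases before the start, is not among the stretches. The Sod1 match lies 56 bases before the start (chr16:90220696-90220725, plus strand) and reads TGACCACGC on the opposite strand. The Gstp1 stretch is chr19:4037968-4037997 (minus strand), the Sod2 stretch chr17:13007760-13007789 (plus strand), the Txn1 stretch chr4:57956434-57956463 (minus strand) and the Cat stretch chr2:103485160-103485189 (minus strand). Of the 9 genes, Gpx1 had the lowest GC content in its window (47.0%) and Gpx4 the highest (68.3% in 1 of its 4 windows); the median of all windows was 52.7%.

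Sod2, the manganese dismutase of the mitochondrial matrix (ENSMUSG00000006818, chromosome 17, 13007839 to 13018119, GRCm38.p6), had 124 and 149 counts without 1-nitropyrene and 63 and 93 with it, or 94.3 and 126 CPM against 54.2 and 73.7 CPM. Both 1-nitropyrene libraries were below both controls. The level fell from 110 ± 22.2 to 63.9 ± 13.8 CPM (SD, n = 2 each), a log2 fold change of -0.77 (SE 0.18, adjusted p = 0.00049 by edgeR). The SE and adjusted p rest on a spread shared over all genes and not on that of Sod2 alone. The libraries of a group differed from each other by factors of 1.33 and 1.36, the widest of the 8 tested genes, and the call was lost without control replicate 2 (edgeR adjusted p = 0.137), without 1-nitropyrene replicate 2 (0.147) and with DESeq2 (0.0800).

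Sod1, the copper and zinc dismutase of the cytosol (ENSMUSG00000022982, chromosome 16, 90220762 to 90226333), had 95.1 and 92.0 CPM in control libraries and 108 and 123 CPM in 1-nitropyrene libraries, from 125, 109, 125 and 155 counts. The groups did not overlap, with the controls lower, but the difference did not pass the test (log2 fold change 0.30, SE 0.16, adjusted p = 0.200 by edgeR). Its 95% interval ran from 0.987- to 1.54-fold.

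The dismutases could be compared without any scaling through the ratio of their counts in each library. Sod1 counts per Sod2 count were 1.01 and 0.732 without 1-nitropyrene and 1.98 and 1.67 with it. The ratio was higher in both treated libraries than in both controls, 1.83 ± 0.224 against 0.870 ± 0.196 (SD, n = 2 each). An exact two-sided permutation test over the libraries gave p = 0.333, which is the smallest that 2 against 2 allow. The fitted log2 fold changes differed by 1.07 (95% interval 0.59 to 1.55, taking the genes' errors as independent). This pair, like the 3 others compared below, was chosen after its values were seen, so the interval is a description, and a ratio of 2 genes does not tell which of them moved.

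Catalase, which splits hydrogen peroxide without a co-substrate (Cat, ENSMUSG00000027187, chromosome 2, 103453904 to 103485153), was the only tested member called higher. It had 315 and 303 counts in control libraries and 375 and 394 in 1-nitropyrene libraries, or 240 and 256 CPM against 323 and 312 CPM. Both treated libraries were above both controls, and libraries of a group lay within a factor of 1.07. The level rose from 248 ± 11.3 to 317 ± 7.50 CPM (SD, n = 2 each), or 1.28-fold (log2 fold change 0.36, SE 0.097, adjusted p = 0.0029 by edgeR). The rise was no longer called when libraries were scaled to total counts (log2 fold change 0.20, edgeR adjusted p = 0.137), with DESeq2 (adjusted p = 0.108), without control replicate 1 (edgeR adjusted p = 0.101) or without 1-nitropyrene replicate 2 (0.0793); its direction was the same in each.

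Gpx1, the main cytosolic glutathione peroxidase and a selenoprotein (ENSMUSG00000063856, chromosome 9, 108339080 to 108340342), had 187 and 145 counts in control libraries and 116 and 160 in 1-nitropyrene libraries. Its levels of 142 and 122 CPM against 99.8 and 127 CPM overlapped between the groups. The difference did not pass the test (log2 fold change -0.22, SE 0.15, adjusted p = 0.325 by edgeR), and its interval ran from 0.699- to 1.05-fold. Cat counts per Gpx1 count were 1.68 and 2.09 in control libraries and 3.23 and 2.46 in 1-nitropyrene libraries. The ratio was higher in both treated libraries, 2.85 ± 0.545 against 1.89 ± 0.286 (SD, n = 2 each; exact two-sided permutation p = 0.333, the smallest possible), and the log2 fold changes differed by 0.58 (95% interval 0.23 to 0.93).

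Gpx4, the selenoprotein that reduces lipid peroxides in membranes (ENSMUSG00000075706, chromosome 10, 80047166 to 80056439), was hardly counted. It had 3 and 18 counts in control libraries and 2 in either 1-nitropyrene library, too few to pass the filter. As unscaled CPM (per 1e+06 counts of the library), these were 2.38 (exact 95% binomial interval 0.490 to 6.95), 15.8 (9.39 to 25.0), 1.61 (0.195 to 5.81) and 1.47 (0.178 to 5.32). Control replicate 2 thus stood apart, and the other 3 libraries did not differ beyond counting error. RefSeq names 2 pseudogenes of this gene, Gpx4-ps1 and Gpx4-ps2, and the handling of reads shared with such copies is not stated in the labels, so the level is uncertain.

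Prdx1, a cytosolic peroxiredoxin that reduces peroxide at a cysteine (ENSMUSG00000028691, chromosome 4, 116685599 to 116700000), had 68, 71, 64 and 66 counts in control replicates 1 and 2 and 1-nitropyrene replicates 2 and 3. Its levels of 51.7 and 59.9 CPM against 55.1 and 52.3 CPM overlapped. No change was detectable at this depth (log2 fold change -0.054, SE 0.23, adjusted p = 0.913 by edgeR), with an interval from 0.709- to 1.31-fold. The gene overlaps the lncRNA gene AV051173, and RefSeq names the pseudogene Prdx1-ps.

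Txn1, the cytosolic thioredoxin that reduces disulphides of peroxiredoxins and other proteins (ENSMUSG00000028367, chromosome 4, 57943373 to 57956411), was the most deeply counted member. It had 1869 and 1543 counts in control libraries and 1232 and 1294 in 1-nitropyrene libraries, or 1422 and 1302 CPM against 1060 and 1025 CPM. Both treated libraries were below both controls. The level fell from 1362 ± 84.7 to 1043 ± 24.9 CPM (SD, n = 2 each), a log2 fold change of -0.39 (SE 0.048, adjusted p = 1.0e-13 by edgeR). Its adjusted p was under 0.05 in all 13 alternatives, DESeq2 and the removal of any 1 library included, though the fall is smaller than 1.5-fold. RefSeq names the pseudogene Txn-ps1. Prdx1 counts per Txn1 count, 0.0364 and 0.0460 in control and 0.0519 and 0.0510 in 1-nitropyrene libraries, were higher in the treated libraries (exact two-sided permutation p = 0.333, the smallest possible). The fitted changes differed by 0.33 on the log2 scale, with a 95% interval from -0.12 to 0.79 that includes 0.

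Gsr, the reductase that regenerates glutathione with NADPH (ENSMUSG00000031584, chromosome 8, 33653238 to 33698162), had 83 and 97 counts in control libraries and 55 and 58 in 1-nitropyrene libraries. The levels were 63.1 and 81.8 CPM against 47.3 and 45.9 CPM, and the groups did not overlap. The level fell from 72.5 ± 13.2 to 46.6 ± 0.981 CPM (SD, n = 2 each), a log2 fold change of -0.63 (SE 0.22, adjusted p = 0.0299 by edgeR). This was the weakest of the 4 calls. It was lost without control replicate 2 (edgeR log2 fold change -0.43, adjusted p = 0.379), without 1-nitropyrene replicate 2 (adjusted p = 0.159) or replicate 3 (0.136), with no filter on low counts (0.0613) and with DESeq2 (0.276). Its span overlaps the snoRNA gene Gm24727 and the pseudogene Gm17803. Gpx1 counts per Gsr count, 2.25 and 1.49 in control and 2.11 and 2.76 in 1-nitropyrene libraries, overlapped between the groups (exact two-sided permutation p = 0.667), and the log2 fold changes differed by 0.41 (95% interval -0.11 to 0.93).

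Gstm1, a mu-class transferase that conjugates glutathione to electrophiles (ENSMUSG00000058135, chromosome 3, 108012250 to 108017973), had 84 and 80 counts in control libraries and 85 and 116 in 1-nitropyrene libraries. Its levels of 63.9 and 67.5 CPM lay below the 73.1 and 91.9 CPM of the treated libraries, but the difference did not pass the test (log2 fold change 0.33, SE 0.20, adjusted p = 0.240 by edgeR; interval 0.967- to 1.64-fold). The gene belongs to a family of similar copies, among which the counting may have split reads.

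Gstp1, the pi-class transferase (ENSMUSG00000060803, chromosome 19, 4035411 to 4037912), was also under the filter, with 9 and 7 counts in control libraries and 0 and 14 in 1-nitropyrene libraries. The treated libraries disagreed. The count of 0 in replicate 2 has an exact 95% binomial interval of 0 to 2.97 unscaled CPM (3 counts, the usual limit for a count of 0, would be 2.41), while replicate 3 stood at 10.3 unscaled CPM (exact 95% binomial interval 5.64 to 17.3) and the controls at 7.14 and 6.16 unscaled CPM. These limits cover counting error only. RefSeq names the pseudogene Gstp-ps, and mouse carries further pi-class copies, so this level too is uncertain.

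**Figure D3:**
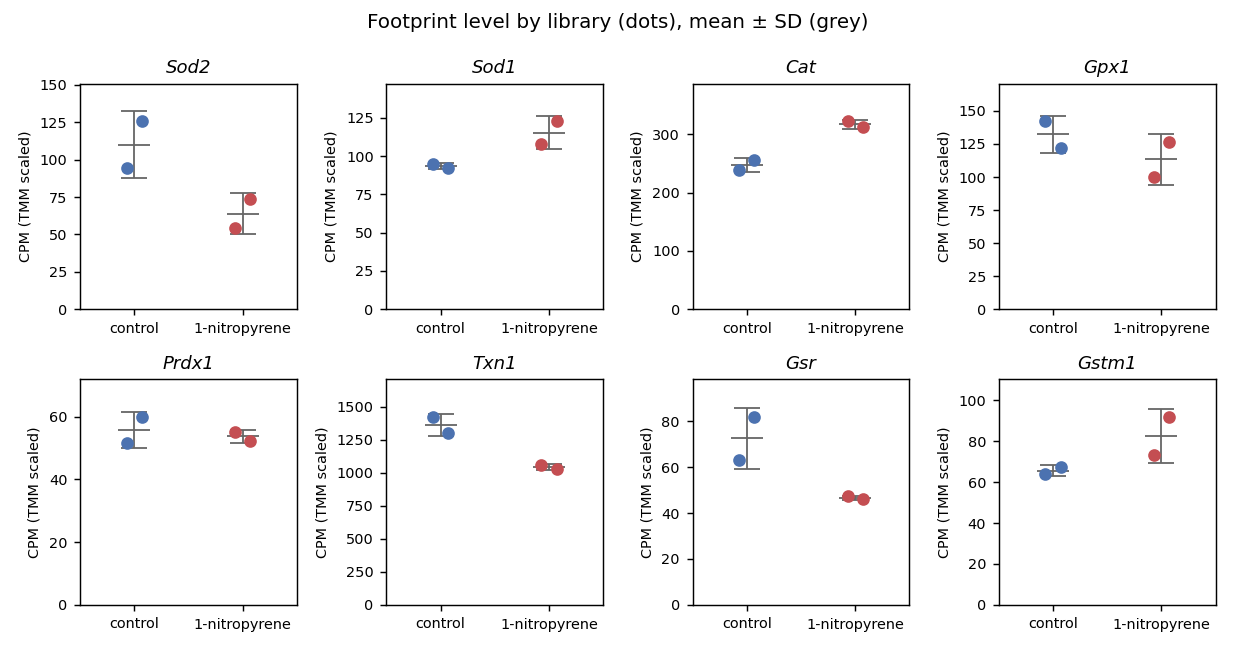
Footprint level of each tested enzyme in CPM (y axis, from 0) in both control (blue) and both 1-nitropyrene libraries (red), with mean ± SD in grey. The groups are apart for Sod2, Sod1, Cat, Txn1, Gsr and Gstm1 and overlap for Gpx1 and Prdx1.

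The groups did not overlap for 6 of the 8 tested enzymes, where 57.3% of all tested genes did not overlap. Among those whose mean count reached 50 the share was 65.8%.

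**Figure D4:**
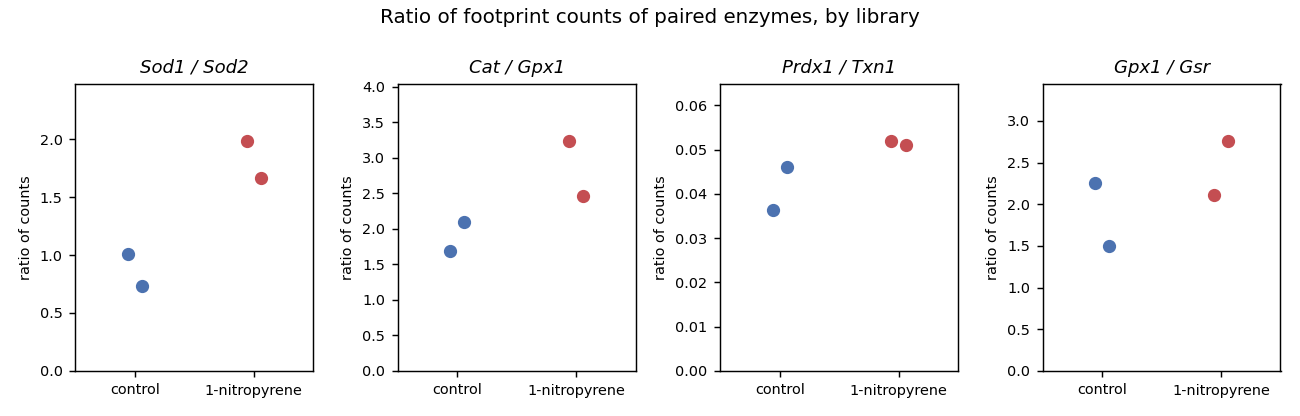
Ratio of footprint counts of 2 enzymes within each library (y axes from 0), for Sod1 over Sod2, Cat over Gpx1, Prdx1 over Txn1 and Gpx1 over Gsr. The first 3 ratios are higher in both 1-nitropyrene libraries (red) than in both control libraries (blue), and the last overlaps.

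**Figure D5:**
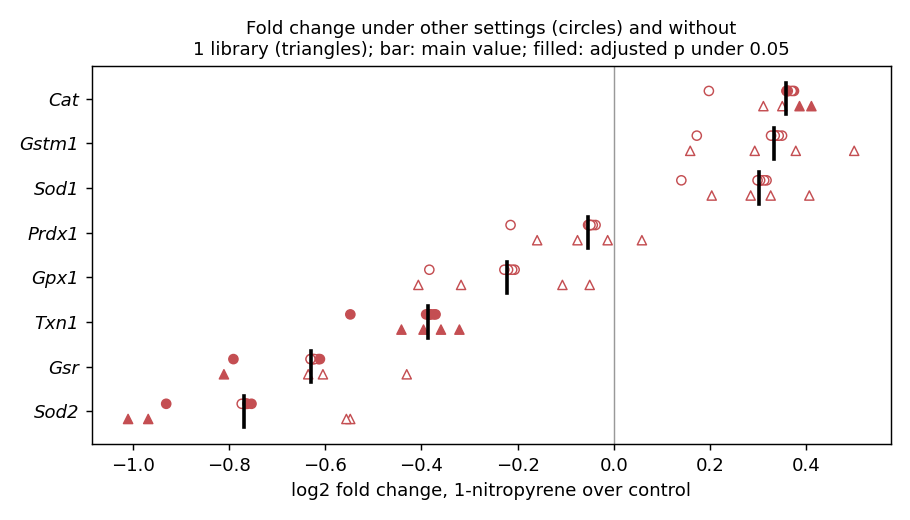
Log2 fold change of each tested enzyme under other settings (circles) and without 1 library (triangles), with the reported value as a bar; filled symbols have an adjusted p under 0.05. The added 1.5-fold threshold is not drawn, as it leaves the values as they are. Txn1 is filled throughout, while Sod2, Cat and Gsr have open symbols too.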

How the data were processed

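The authors deposited whole-number footprint counts per Ensembl gene ID for 4 libraries, with no normalization. Per the submitters' processing notes cutadapt, Bowtie, HISAT2, featureCounts and DESeq2 were used with build mm10; their versions and settings, the annotation, fragment lengths and the rules on strand and multi-mapping reads are not stated there. Genes were kept with edgeR's filterByExpr (minimum count 10, minimum total 15), scaled with TMM and compared with edgeR's quasi-likelihood F test without covariates (R 4.3.3, edgeR 4.0.16), with Benjamini-Hochberg adjustment over all tested genes. Prior degrees of freedom were infinite, so each gene's error followed the trend over all genes, and its own spread between libraries got no weight. Standard errors were derived from fold change and F, and 95% intervals from the normal distribution. Alternatives used DESeq2 1.42.0 and limma 3.58.1. The members and lists were chosen with earlier results of these data known, and the 4 pairs of enzymes and the motifs after the values were seen. By rule all 10 members are named. RefSeq's table of 49997 genes (GRCm38.p6) holds 0 Ensembl IDs, so members take their symbols from the list of members, and lists of other redox genes and of cell type markers are not analysed here, nor was the cell identity checked. Coding lengths were not used here, so no levels are compared between genes.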

Additional observations from a re-analysis of the deposited data

How the results depend on the processing

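Of 104 combinations of a tested enzyme and an alternative (13 per enzyme), 86 kept direction and side of the threshold. Among the 4 called enzymes, Txn1 kept them in 12 of 13, Sod2 in 9, and Cat and Gsr in 7 each. The 4 enzymes that did not pass kept them in 12 (Prdx1) or 13 (Sod1, Gpx1 and Gstm1). Only Prdx1 turned, to 0.058 without control replicate 2, and Prdx1 was called in none of its alternatives. DESeq2's size factors, TMM without the 2 most counted IDs, limma-voom and a filter of 5 CPM in 2 libraries kept all 4 calls. In that order, 17.3%, 17.2%, 16.2% and 14.9% of all genes then tested were called. Total counts shifted the median of all genes by -0.16 and lost Cat (0.20); the 3 falls kept their calls, and 27.2% of all calls were higher against 56.1% with TMM. No filter lost Gsr (-0.61), with 3 members called beside 8.52% of the 13738 genes then tested. The DESeq2 Wald test kept only Txn1 of the 4, with 0 higher and 1 lower, as Sod2 (-0.77), Cat (0.37) and Gsr (-0.62) missed the threshold; it called 318 genes in all. On the 7719 genes edgeR tested, an alternative added after seeing the data, the DESeq2 Wald test gave -0.77 for Sod2, 0.36 for Cat and -0.63 for Gsr. These were again not called (DESeq2 adjusted p = 0.0840, 0.137 and 0.338). Txn1 was the 1 member called, beside 345 genes in all, or 4.47%. Requiring 1.5-fold left 2 members (0 higher) and 835 genes, without Cat (0.36) and Txn1 (-0.39). Leaving out 1 library, with the lone sample taken to vary like the other group, left 1 to 3 members called (0 to 1 higher, 1 to 3 lower) and 572 to 834 genes. The log2 fold changes then ran from -1.01 to -0.55 for Sod2, 0.31 to 0.41 for Cat, -0.44 to -0.32 for Txn1, -0.81 to -0.43 for Gsr, 0.20 to 0.41 for Sod1, -0.41 to -0.050 for Gpx1, 0.16 to 0.50 for Gstm1 and -0.16 to 0.058 for Prdx1. The members called were 2 without control replicate 2, beside 8.84% of all genes then tested, and 1 without 1-nitropyrene replicate 2, beside 6.78%, Txn1 among them in each. The causes were not tested. With no filter, Gpx4 had a log2 fold change of -2.29 (edgeR adjusted p = 0.0536), resting on control replicate 2, and Gstp1 -0.14 (adjusted p = 0.920). No paired analysis was possible because just 1 replicate number, 2, occurs in both groups. Per-codon levels and the lists of other genes were not run.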
